A study of Mus musculus with 98 samples.

Results

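Skeletal muscle was taken from mice whose liver cells had been replaced either by human hepatocytes (Hu arm) or by murine hepatocytes (Mu arm, the control), and the time-averaged RNA level of each gene was compared between the arms. The comparison used the 27 muscle libraries of the 98 samples in the series, 15 Hu and 12 Mu, chosen by tissue and arm as labelled. All animals of both arms were FRGN mice, which carry homozygous deletions of Fah, Rag2 and Il2rg on a background crossed with the non-obese diabetic strain, and so lack B, T and natural killer cells. They were males 10 weeks old, fed the 5LJ5 diet. Both arms received nitisinone (NTBC), which protects cells without Fah, in cycles at 8 mg/l for 3 days every 5 weeks. It was given with sulfamethoxazole and trimethoprim antibiotics and 3% dextrose. Hu mice were kept in the study only when human cells made up over 70% of their hepatocytes, so their livers may still hold some mouse hepatocytes, and the muscle itself is mouse tissue in both arms. Sampling covered the day at 6 times, counted in hours from lights on as zeitgeber time (ZT): ZT 2, 6, 10, 14, 18 and 22, with 2 Mu libraries at each time and 3, 3, 2, 2, 3 and 2 Hu libraries in that order. The labels name neither the muscle that was dissected nor an animal for each library, so p-values measure the spread between these libraries.

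The liver acts on muscle through the blood. Growth hormone makes hepatocytes release insulin-like growth factor 1, and the liver also supplies lipoproteins, glucose, ketone bodies, complement and selenoprotein P. Muscle fibres range from slow oxidative fibres, rich in mitochondria and fatty acid oxidation, to fast glycolytic fibres, and macrophages, vessel cells, fibroblasts, satellite cells and fat cells lie between the fibres. In bulk tissue a change in the number of cells of a type and a change in RNA per cell cannot be told apart.

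Total counts ranged from 43102074 to 92054635 in Hu and from 50864197 to 79622082 in Mu libraries. The tissue carried the RNA of fast skeletal muscle: Ckm, muscle creatine kinase, had medians of 19720 CPM (the usual unit of counts scaled to library size) in Hu and 17330 CPM in Mu. Acta1, skeletal actin, had a log2 difference of 0.02 (SE 0.12, adjusted p = 0.908), where all differences are Hu minus Mu from edgeR's quasi-likelihood test with Benjamini-Hochberg adjustment. Rag2, Il2rg and Fah had medians of 1.05, 1.46 and 0.919 CPM in Hu and 0.983, 1.56 and 0.623 CPM in Mu, with adjusted p of 0.653, 0.376 and 0.385. Reads outside the deleted part can give such levels, so these 3 genes do not check the labels. One library stood apart: Hu ZT 6 replicate 1 had a summed level of neutrophil and marrow markers of 2167 CPM, against at most 220.6 CPM in any other muscle library. Its red blood cell markers summed to 10760 CPM and its dividing cell markers to 796.9 CPM, against at most 716.1 and 38.27 CPM elsewhere. Results are therefore given with and without it where it moved them. Leaving it out did not remove all libraries with raised neutrophil and marrow markers. These summed to 220.6 CPM in Mu ZT 10 replicate 1 and 117.7 CPM in Hu ZT 2 replicate 1, among others, against medians of 5.698 CPM in Hu and 1.638 CPM in Mu. Hu ZT 14 replicate 2 stood apart to a lesser degree: its mean correlation with the other libraries was 0.948, against 0.915 for Hu ZT 6 replicate 1 and at least 0.961 for the remaining 25. It had the highest summed levels of the atrophy (7466 CPM, next 3051), complement (2220, next 1541), proteasome (5594, next 4229) and denervation (735.8, next 439) lists. Without it 14 macrophage, 17 complement and 76 ribosome genes of those lists were called higher.

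Of 14197 genes tested, 3817 (26.9%) differed between the arms at an adjusted p under 0.05, here called genes. The 1923 called higher in Hu made up 13.5% of the genes tested and the 1894 called lower made up 13.3%. A called difference of over 2-fold was found for 381 higher genes (2.68%) and 153 lower genes (1.08%), so most differences were small. All 15 Hu libraries lay above all 12 Mu libraries for 8 genes (0.0563%) and below them for 7 (0.0493%). These shares are the background for every count of list members below, and the median log2 difference over all genes was 0.03. The number called depended on the time points: it was 2055 without ZT 6 and 1582 without ZT 22. A test against a difference of at least 1.5-fold called 115 genes, 59 higher and 56 lower.

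The 12 higher genes with the smallest p-values began with Cxcl13. It encodes a chemokine that attracts B cells and is made by stromal and myeloid cells. In Hu muscle its level was 1.53 CPM at the lowest, 4.75 at the median and 37.3 at the highest, and in Mu muscle 0.0696, 0.351 and 0.845 CPM. Every Hu library was above every Mu library, and the fitted difference was 4.12 on the log2 scale (SE 0.41, adjusted p = 4.32e-06), or 17.4-fold. Over the fits without 1 library it was lowest, at 3.799, without Hu ZT 14 replicate 2. Prkcz, an atypical protein kinase C that acts in cell polarity and glucose transport, ran from 6.72 through a median of 10.2 to 14.7 CPM in Hu and from 3.11 through 4.54 to 6.5 CPM in Mu. Its groups did not overlap either, with a log2 difference of 1.13 (SE 0.11, adjusted p = 4.32e-06).

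Gpx3, the plasma glutathione peroxidase and a selenoprotein, had a lowest level of 206, a median of 346 and a highest of 812 CPM in Hu, against 96.8, 143 and 231 CPM in Mu. It was 2.75-fold higher (log2 1.46, SE 0.15, adjusted p = 4.56e-06), and 14 of 15 Hu libraries lay above all Mu libraries. Penk, the precursor of enkephalin peptides, was higher by 0.998 on the log2 scale, and Ngfr, the low-affinity neurotrophin receptor, by 1.94. Also higher were the membrane proteins Tmem176b (1.07), Tmem176a (1.06) and Ifitm1 (1.28, an interferon-inducible protein), and Taf9b (0.61), a transcription factor subunit. The remaining genes among the 12 with the smallest p were Ctxn3 (1.68), Spag6 (1.11) and Epop (1.35). All 12 were higher in Hu at each of the 6 time points.

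Among lower genes the smallest p-values came with modest folds and little overlap. Fam92a ran from 2.6 through a median of 3.77 to 4.79 CPM in Hu and from 4.95 through 5.47 to 6.22 CPM in Mu, with no overlap and a log2 difference of -0.61 (SE 0.06, adjusted p = 4.32e-06). Vash1, vasohibin, a tubulin carboxypeptidase known for restraining vessel growth, ran from 1.28 through 2.73 to 3.94 CPM in Hu and from 3.97 through 5.86 to 9.42 CPM in Mu. It did not overlap either and was 2.38-fold lower (log2 -1.25, SE 0.16, adjusted p = 3.03e-05). Ets1, a transcription factor of endothelial and immune cells, had a log2 difference of -0.67. Col22a1, a collagen of the junction between muscle and tendon, had one of -0.78, and Klhl23, a kelch family member, one of -1.18. Abi2, Csdc2, Gm43302, Fam221b, Dcakd, Ostm1 and Zfp532 completed the list, at -0.54, -1.08, -1.01, -1.34, -0.94, -0.36 and -0.41. All 12 were lower in Hu at each time point.

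Among called genes with a mean of at least 1 CPM, the largest folds belonged mostly to genes at low levels. Higher in Hu were Vnn1 (log2 3.30), a pantetheinase, Pck1 (3.62), the gluconeogenic enzyme that also serves glycerol synthesis in fat, and Elovl3 (3.69), a fatty acid elongase of brown fat and skin. Lower in Hu was Igfbp2, a carrier of insulin-like growth factors, which ran from 0.0695 through 0.476 to 0.992 CPM in Hu and from 0.645 through 2.01 to 4.81 CPM in Mu. Its log2 difference was -2.13 (SE 0.37, adjusted p = 3.53e-04), and 11 of 15 Hu libraries lay below all Mu libraries. Rab15 (-2.08), a small GTPase of vesicle traffic, Fam131c (-2.27), Gm33543 (-2.19) and Spsb4 (-1.95) were lower too. Serpina3k, a serine protease inhibitor made by the liver, had a difference of -3.25, and no Hu library lay below all Mu libraries. It was not called without Mu ZT 2 replicate 2 or Mu ZT 14 replicate 1, and without the second its difference was -0.39. Mu ZT 14 replicate 1 had the highest summed hepatocyte markers of the Mu arm, at 219.9 CPM against a Mu median of 19.88 CPM.

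**Figure D1:**
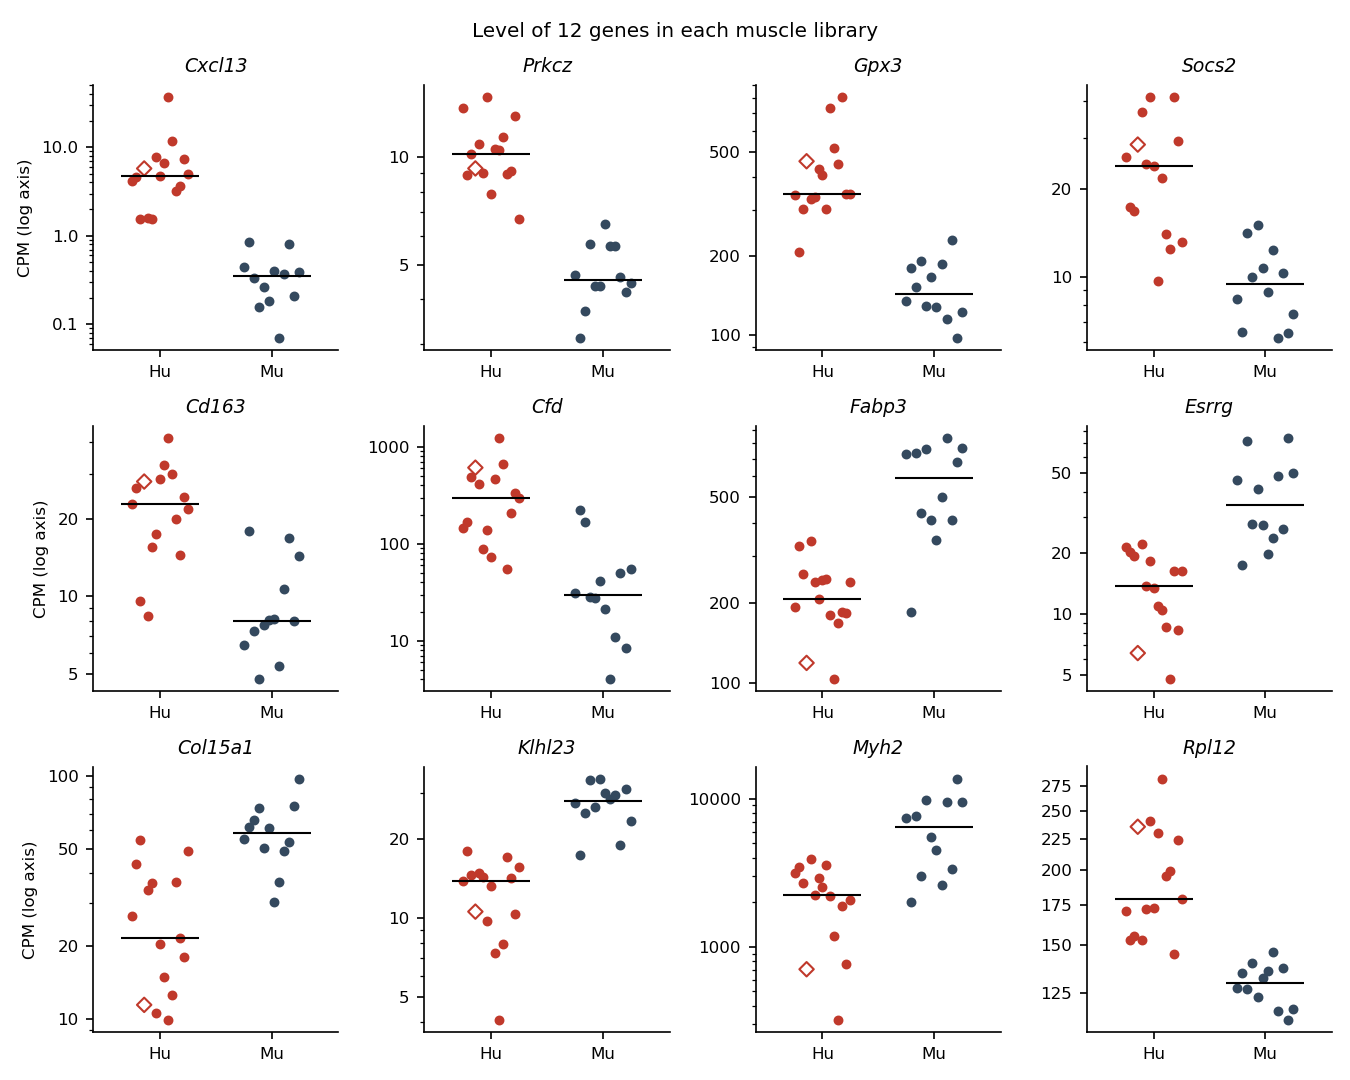
Level in CPM (log axes) of 12 genes in each of the 15 Hu (red) and 12 Mu (dark) muscle libraries; points run from ZT 2 on the left to ZT 22 on the right within a group, bars are medians, and the open diamond is Hu ZT 6 replicate 1. The groups do not overlap for Cxcl13 and Prkcz; for Cxcl13 the lowest Hu library is at 1.53 CPM and the highest Mu library at 0.845 CPM.

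Genes of tissue macrophages, the resident phagocytes of muscle, were higher in Hu. All 15 macrophage markers tested were called higher, with a median log2 difference of 0.88, against 13.5% of all genes. Cd163, the haemoglobin scavenger receptor of resident macrophages, had a lowest level of 8.39, a median of 22.9 and a highest of 41.6 CPM in Hu, against 4.75, 8.05 and 18 CPM in Mu. It was 2.44-fold higher (log2 1.29, SE 0.22, adjusted p = 2.72e-04), with 10 of 15 Hu libraries above all Mu libraries. Ms4a7 and Cd68, a membrane protein of macrophages and a lysosomal one, were higher by 1.25 and 1.20. The smallest difference among the markers was that of Mertk, a receptor for the uptake of dead cells, at 0.35 (Mertk, like C7, Rpl34 and Rps2 below, was picked after its values were seen), and it was the 1 marker not called without Hu ZT 6 replicate 1, when 14 of 15 were called with a median of 0.79. Summed over the markers, the level ran from 181.9 through a median of 317.3 to 675.6 CPM in Hu and from 95.19 through 165.4 to 296.4 CPM in Mu, and without that library the highest Hu sum was 430.7 CPM. The groups overlapped, and 9 of 15 Hu libraries were above all Mu libraries.

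Other leukocyte genes did not move as one group. Of 7 antigen-presenting cell genes tested, Cd209a, a lectin of dendritic cells and macrophages, was called higher (1.37), and Cd74, H2-Ab1, H2-Aa and H2-Eb1, picked after their values were seen, all of class II antigen presentation, were not called, at -0.49, -0.42, -0.41 and -0.36. Without Hu ZT 6 replicate 1, Cd74 was called lower, at -0.52. Of 6 mast cell genes tested, 3 were called higher: the proteases Tpsb2 (0.97), Cpa3 (0.75) and Cma1 (0.74). B cell markers passed the filter on low counts in 2 of 10 cases and T and natural killer cell markers in 1 of 13, and none of these 3 was called. Their summed levels had medians of 1.49 and 0.667 CPM in Hu and 1.72 and 0.457 CPM in Mu. Ms4a1, the B cell antigen CD20, and Ncr1 and Gzma of natural killer and cytotoxic cells had no count in any muscle library.

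Complement, the cascade of plasma proteins that tags and lyses targets, was higher across its steps. Of 18 complement genes tested, 17 were called higher and none lower, with a median log2 difference of 0.84. C2 (0.79) and C3 (1.25), the protease and the central protein of the cascade, and Cfd (3.04), the factor D protease of the alternative pathway, had the smallest p-values. C3 ran from 111 through a median of 183 to 362 CPM in Hu and from 39.4 through 71 to 200 CPM in Mu, so the ranges overlapped, with 5 Hu libraries above all Mu libraries. C7, a part of the lytic pore, was the 1 gene not called, at 0.46. The fat cell markers, described below, were also higher, and the part of fat cells in these complement values was not tested beyond leaving out the libraries richest in fat. The 3 C1q genes are also on the macrophage list and Cfd on that of fat cells, so the lists are not independent.

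Chemokines split by member. Of 14 tested, 6 were called higher and none lower, with a median of 0.58. After Cxcl13, the smallest p-values were those of the macrophage-attracting chemokines Ccl6 (1.49) and Ccl9 (1.06). Of 14 inflammatory cytokine genes 3 were called higher, Hp (haptoglobin, 2.42), Il6ra (an interleukin 6 receptor chain, 1.23) and Il1r1 (0.35), and 1 lower, Il15 (-0.60), a myokine.

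Genes of the interferon response, a list that mixes targets of type I and type II interferon, were lower or not called: 7 of 29 fell and none rose, with a median of -0.06. Ifi44, which had the smallest p among them, ran from 0.549 through 1.55 to 3.42 CPM in Hu and from 2.51 through 3.46 to 4.68 CPM in Mu. It was 2.21-fold lower (log2 -1.14, SE 0.17, adjusted p = 1.01e-04), and 13 of 15 Hu libraries lay below all Mu libraries. Ifit2 and Gbp3 were at -0.44 and -0.59. Without Hu ZT 6 replicate 1 the count was 10 lower and the median -0.20.

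Fat cell markers were higher in the Hu arm and varied strongly within both arms. Of 15 tested, 10 were called higher and none lower, with a median of 2.12. Without Hu ZT 6 replicate 1 the count was 8. With the replicate number as a block it was 8, and with time point and number together as a block 5. The list's median difference was -0.06 at ZT 2 and 4.93 at ZT 14. Cfd, named above as a protease and made in quantity by fat cells, ran from 55.6 through 294 to 1248 CPM in Hu and from 4 through 29.6 to 222 CPM in Mu. It was 8.21-fold higher (SE 0.53 on the log2 scale, adjusted p = 3.76e-04). Retn, resistin (2.57), and Cidec, a protein of lipid droplets (2.53), followed, and Ucp1, the uncoupling protein of brown fat, had the largest fitted fold of all called genes with a mean of at least 1 CPM when all libraries were used. Without Hu ZT 6 replicate 1 its log2 difference was 3.76, under the 4.045 of Cxcl13. Its level ran from 0.417 through 7.84 to 442 CPM in Hu and from 0.0391 through 0.806 to 130 CPM in Mu, with a log2 difference of 4.22 (SE 1.20, adjusted p = 0.0126). The groups overlapped for Ucp1, and 2 Hu libraries were above all Mu libraries.

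The summed fat marker level ran from 1025 through a median of 3997 to 18510 CPM in Hu and from 499.8 through 1180 to 20340 CPM in Mu. The 3 libraries richest in fat markers, at over 10000 CPM, were Hu ZT 2 replicate 3, Hu ZT 18 replicate 1 and Mu ZT 2 replicate 2. Without them, an alternative chosen after seeing the data, 12 fat markers, 15 macrophage markers and 18 complement genes were called higher. Enzymes of triglyceride synthesis and breakdown, most of which fat cells express, followed in part. Of 20 tested 4 were called higher, among them Srebf1 (0.70), the transcription factor of lipid synthesis, Dgat1 (0.78) and Lipe (1.11, hormone-sensitive lipase), and 1 lower, Gpam (-0.57), the first enzyme of glycerolipid synthesis. Of the 4, Srebf1 alone was called higher without Hu ZT 6 replicate 1, and 12 of the 20 genes were without Mu ZT 2 replicate 2. Lipe kept its call in 10 and Dgat1 in 15 of the 27 fits that each left out 1 library.

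**Figure D2:**
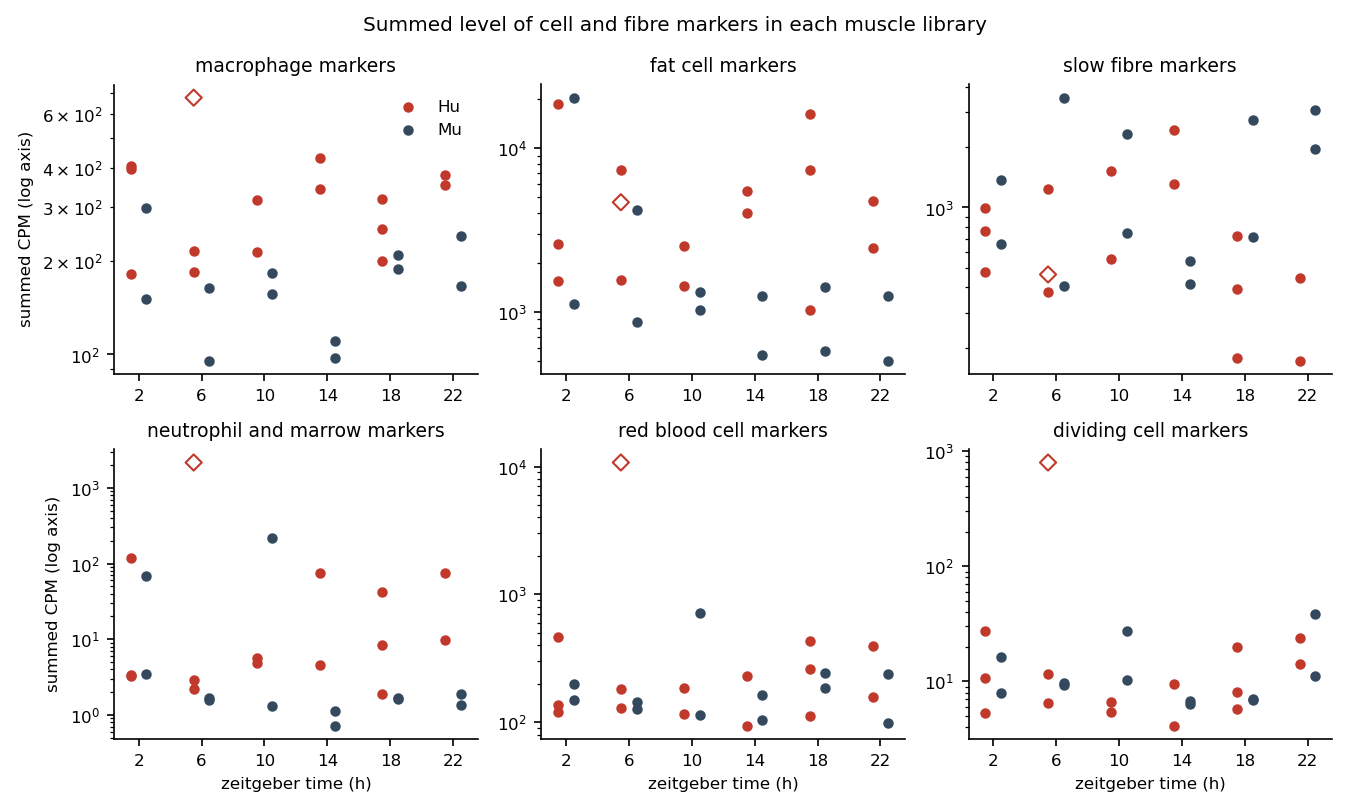
Summed CPM (log axes) of 6 marker lists in each muscle library by zeitgeber time, Hu in red and Mu in dark; the open diamond is Hu ZT 6 replicate 1. That library lies at 2167 CPM for neutrophil and marrow markers, 10760 CPM for red blood cell markers and 796.9 CPM for dividing cell markers, above every other library, while fat and slow fibre markers spread widely within both arms.

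Genes of mitochondrial energy metabolism were lower in Hu muscle as a broad and shallow shift. All 5 groups of the respiratory chain had called genes in this direction only. Of the nuclear genes, 23 of 36 of complex I, 13 of 14 of complexes II and III, 8 of 13 of complex IV and 11 of 15 of ATP synthase were called lower, with medians of -0.28, -0.35, -0.24 and -0.29, against 13.3% of all genes. Of 13 genes encoded in the mitochondrial genome, 11 were called lower, with a median of -0.42. Without Hu ZT 6 replicate 1 the counts were 23, 13, 8, 11 and 12.

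Ndufs1, the largest subunit of complex I, ran from 277 through a median of 422 to 505 CPM in Hu and from 382 through 561 to 602 CPM in Mu. Its log2 difference was -0.43 (SE 0.08, adjusted p = 7.39e-04), and 4 Hu libraries lay below all Mu libraries. Uqcrc1, a core subunit of complex III, and Atp5g3, which encodes the rotor ring subunit of ATP synthase, had differences of -0.41 and -0.52. In the mitochondrial genome, mt-Co1, the catalytic subunit of complex IV, ran from 17720 through 31100 to 44050 CPM in Hu and from 32450 through 43580 to 47810 CPM in Mu. It was 1.42-fold lower (log2 -0.51, SE 0.10, adjusted p = 0.00134), and 10 of 15 Hu libraries were below all Mu libraries.

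The citric acid cycle and fatty acid oxidation, which feed electrons to that chain, were lower as well. Of 15 cycle genes 13 were called lower (median -0.31), with Dlst (-0.40), Dlat (-0.44) and Fh1 (-0.31), which encode parts of the oxoglutarate and pyruvate dehydrogenase complexes and fumarase, at the smallest p-values. Of 21 genes of fatty acid uptake and oxidation 17 were called lower (median -0.34) and 16 without Hu ZT 6 replicate 1. Fabp3, the fatty acid carrier of heart and oxidative muscle, had the largest difference among them. It ran from 103 through 208 to 342 CPM in Hu and from 184 through 591 to 840 CPM in Mu. Its log2 difference was -1.42 (SE 0.20, adjusted p = 6.30e-05), and 5 Hu libraries lay below all Mu libraries. Slc25a20, the carnitine carrier of the inner membrane, was lower by 0.51 and Etfdh, which passes electrons to ubiquinone, by 0.45, both on the log2 scale.

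Glycolysis did not share that shift: of 14 genes 2 were called higher, Gpi1 (0.17) and Aldoa (0.27), and 2 lower, Hk2 (-0.45), a hexokinase, and Ldhb (-1.19), the lactate dehydrogenase subunit of oxidative tissue. Of 16 genes of branched-chain amino acid breakdown, which also takes place in mitochondria, 1 was called, Aldh6a1, and it was higher (0.26). These small calls depended on single libraries: Aldoa kept its call in 15, Aldh6a1 in 14 and Gpi1 in 26 of the 27 fits that each left out 1 library.

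Some activators of mitochondrial genes were called lower. The estrogen-related receptors are orphan nuclear receptors that act with the coactivator Ppargc1a on promoters of oxidative genes. Esrrg ran from 4.74 through 13.7 to 22.1 CPM in Hu and from 17.5 through 34.7 to 74.4 CPM in Mu, with 10 of 15 Hu libraries below all Mu libraries. It was 2.87-fold lower (log2 -1.52, SE 0.23, adjusted p = 1.25e-04). Within Mu, Esrrg was higher in replicate 1 than in replicate 2 at every time but ZT 14, for example 71.64 against 27.73 CPM at ZT 6. Esrra was lower by 0.55 (adjusted p = 0.00101) and Ppargc1a by 0.76 (adjusted p = 0.00838), with a difference of -0.49 without Mu ZT 6 replicate 1. Ppargc1a was the 1 gene called of 14 on the list of PPAR and fasting genes. Its relative Ppargc1b and the receptors Ppara and Ppard, picked after their values were seen, were not called, at -0.25, -0.51 and 0.0040 (adjusted p = 0.214, 0.0537 and 0.972). Of the 19 muscle transcription factors tested 7 were called lower and 1, Eya4 (0.23, called in 11 of 27 fits without 1 library), higher, and Six4, a homeobox factor of fast fibres, had a difference of -0.45. The extended half-site of the estrogen-related receptors, TNAAGGTCA, was searched on both strands of the 250 bases before annotated starts in RefSeq GRCm38.p6. Of the 85 nuclear genes of these mitochondrial lists that were called lower, 68 had a promoter in the table and 1 held the letters (1.47%), against 0.816% of the tested genes with a promoter. That share rests on 1 gene. It was 1.45% among all genes called higher in Hu and 0.905% among all genes called lower. The match is a description and shows no binding.

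Fibre type genes were called in part, and their differences varied widely between time points. All 14 slow fibre genes had a fitted difference below 0, with a median of -1.06, and 4 were called lower, among them Myl2 (-1.68), Myoz2 (-1.35) and Myl6b (-1.02), which encode myosin light chains and a Z disc protein. Without any 1 of 4 Mu libraries, replicate 1 at ZT 6, 10, 18 or 22, 2 slow fibre genes were called. Their summed level ran from 172 through 553.4 to 2417 CPM in Hu and from 406.8 through 1056 to 3521 CPM in Mu, with 4 Hu libraries below all Mu libraries. The median difference of the slow list was -3.06 at ZT 22 and 1.64 at ZT 14. At ZT 14 complexes II and III had a median of -0.78 and complex I one of -0.64, the lowest of the 6 time points for both. That time has 2 Hu libraries, including Hu ZT 14 replicate 2, which stood apart. A link between fibre type and the respiratory chain genes was not tested. Of 15 fast fibre genes, Actn3 (0.65), Mybpc2 (0.57) and Myh4 (0.47) were called higher, and 6 of the 15 were without Hu ZT 14 replicate 2. Myh4, the myosin of fast glycolytic fibres, ran from 30950 through 45800 to 59170 CPM in Hu and from 18410 through 33880 to 44650 CPM in Mu. Myh2, the myosin of fast oxidative fibres, was called lower: it ran from 318 through 2223 to 3943 CPM in Hu and from 2020 through 6465 to 13670 CPM in Mu, a 2.99-fold difference (log2 -1.58, SE 0.33, adjusted p = 0.00134). Within Mu, Myh2 was higher in replicate 1 than in replicate 2 at each of the 6 times, for example 7402 against 2020 CPM at ZT 2. Mb, the oxygen store myoglobin, was lower by 0.94 on the log2 scale. Which muscle or which part of it was dissected cannot be told apart from the arm in these measures.

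**Figure D3:**
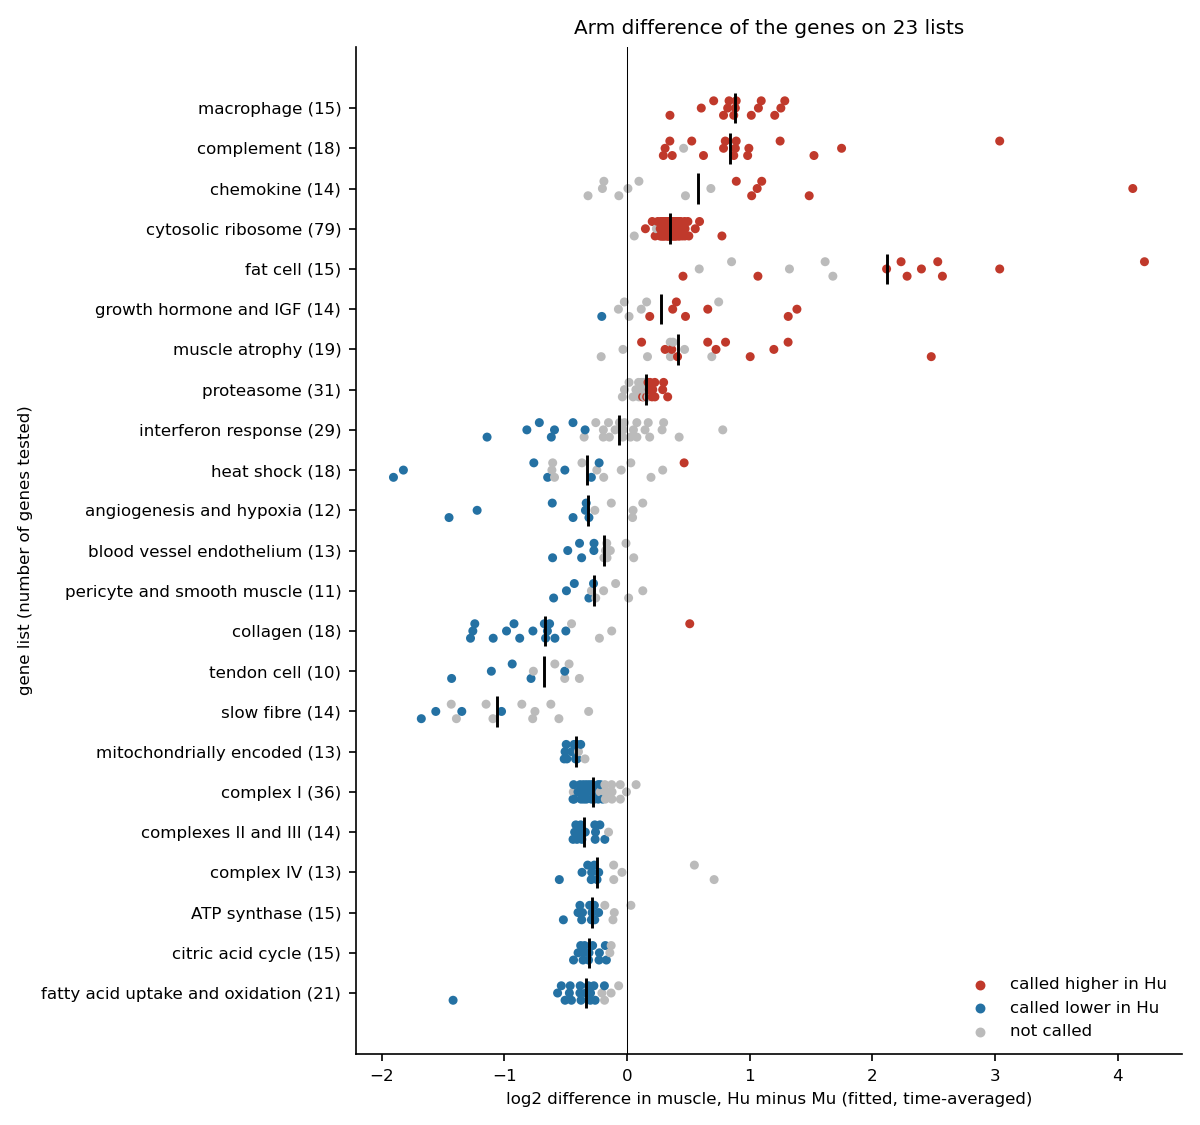
Fitted log2 difference (Hu minus Mu, time-averaged) of each tested gene on 23 lists, with the number of genes tested in brackets; red genes were called higher, blue genes lower and grey genes neither, and the black bar is the list's median. The macrophage and complement lists lie to the right of 0 with medians of 0.88 and 0.84, and the mitochondrial lists lie to its left between -0.42 and -0.24.

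Genes of the cytosolic ribosome rose together by a small amount. Of 79 ribosomal protein genes tested 77 were called higher and none lower, with a median log2 difference of 0.35, and all 79 had a difference above 0. The count was 75 without Hu ZT 6 replicate 1. Rpl12, of the large subunit, ran from 145 through 179 to 283 CPM in Hu and from 113 through 130 to 146 CPM in Mu, and 14 of 15 Hu libraries were above all Mu libraries. Its log2 difference was 0.59 (SE 0.08, adjusted p = 4.98e-05), and Rps20 and Rps25 of the small subunit had differences of 0.56 and 0.42. The 2 genes not called were Rpl34 (0.24) and Rps2 (0.06). Several ribosomal protein genes have processed pseudogenes, among which reads may be split.

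Many ribosomal protein mRNAs begin with a stretch of pyrimidines, the terminal oligopyrimidine start, through which growth signals control their translation. The windows from 35 bases before to 25 bases after the annotated start of the 5 ribosomal genes with the smallest p and a promoter in the table (RefSeq, GRCm38.p6) are shown because these genes moved together. The longest run of C or T is in capitals:
Rpl12, chr2:32961677-32961736, plus strand: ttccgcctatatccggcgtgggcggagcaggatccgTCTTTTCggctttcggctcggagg
Rps25, chr9:44407679-44407738, plus strand: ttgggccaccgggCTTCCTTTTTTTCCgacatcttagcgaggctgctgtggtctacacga
Rps4x, chrX:102189367-102189426, minus strand: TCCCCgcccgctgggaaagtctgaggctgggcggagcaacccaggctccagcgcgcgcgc
Rpl13, chr8:123102315-123102374, plus strand: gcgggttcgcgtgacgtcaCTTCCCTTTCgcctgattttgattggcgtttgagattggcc
Rpl5, chr5:107900493-107900552, plus strand: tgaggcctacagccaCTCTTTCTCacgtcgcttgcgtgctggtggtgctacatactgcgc

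The run was 7, 14, 5, 10 and 9 bases long in that order. Its first base lay at 2, -22, -35, -16 and -20 from the annotated start, where negative positions are before the start. A run of 8 or more such bases lay in this window for 34 of the 58 listed ribosomal genes with a promoter (58.6%), against 27% of the tested genes. For 44 of the 58, bases after the start lay within the first bases of a transcript on the same strand. That checks the strand and not the exact start, and the remaining genes had no such match. Among genes called higher outside the ribosome list the share was 26.5%, and among genes called lower 28.3%. The shares count runs anywhere in the window, before or after the annotated start, so they do not measure terminal oligopyrimidine starts. They are a description here.

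Protein breakdown and stress genes of wasting muscle were higher in part. Of 19 atrophy genes 11 were called higher and none lower, with a median of 0.41. Mt2, a metallothionein, ran from 5.05 through 11.3 to 475 CPM in Hu and from 1.73 through 4.76 to 6.66 CPM in Mu, with 12 of 15 Hu libraries above all Mu libraries. Its log2 difference was 2.48 (SE 0.48, adjusted p = 8.20e-04), and 1.61 without Hu ZT 14 replicate 2. Sesn1, a stress-induced inhibitor of growth signalling, and Gadd45a, a stress gene that rises in denervated muscle, were higher by 0.73 and 1.004. The ubiquitin ligases that define atrophy, chosen after their values were seen, were Trim63 at 0.80, which was called, and Fbxo32 at 0.69, which was not. Of 31 proteasome genes 12 were called higher (21 without Hu ZT 18 replicate 3), with a median of 0.15, and of 20 autophagy genes 6, with Sqstm1 (0.30), Gabarapl2 (0.21) and Lamp2 (0.22, or 0.15 without Hu ZT 14 replicate 2) at the smallest p-values. Targets of the glucocorticoid receptor were higher in 6 of 16 cases and lower in none: Cebpd (1.53), Mt2 and Ddit4 (1.13) led them. Hu ZT 14 replicate 2 had the highest summed level of the atrophy list, 7466 CPM, and without it 11 atrophy, 10 proteasome and 4 glucocorticoid genes were called higher.

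In the growth hormone and insulin-like growth factor (IGF) pathway 7 of 14 genes were called higher and 1 lower, with a median of 0.28. Socs2, a feedback inhibitor that growth hormone induces, ran from 9.65 through 24.1 to 41.5 CPM in Hu and from 6.17 through 9.45 to 15 CPM in Mu. It was 2.49-fold higher (log2 1.31, SE 0.20, adjusted p = 1.21e-04), with 11 of 15 Hu libraries above all Mu libraries. Igfbp3, a carrier protein of IGF, ran from 16.9 through 21.7 to 120 CPM in Hu and from 9.6 through 12 to 14.6 CPM in Mu. Its groups did not overlap (log2 1.39, SE 0.24, adjusted p = 3.14e-04). Igfbp4, another carrier, was higher by 0.48, and Igf2r, which clears IGF2, was lower by 0.21 but not called without Mu ZT 18 replicate 1 or Mu ZT 22 replicate 1. The ligand Igf1, the receptors Igf1r and Ghr and the ligand Igf2, picked after their values were seen, were called higher by 0.66, 0.40, 0.19 and 0.37. The growth hormone signal reaches DNA through STAT5, whose palindrome TTCNNNGAA was searched on both strands in the 250 bases before the start. It was found for 0 of the 13 list genes with a promoter and for 7.19% of the tested genes with one. With 13 genes, a count of 0 does not set the list apart from that share. A window of that size leaves out more distant sites.

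In insulin signalling and glucose uptake 5 of 18 genes were called higher and 2 lower. Tbc1d4, a regulator of the traffic of the glucose transporter, ran from 55.1 through 82.5 to 130 CPM in Hu and from 39 through 57.2 to 66 CPM in Mu, with 14 of 15 Hu libraries above all Mu libraries and a log2 difference of 0.65. Akt2 was higher by 0.27, and Slc2a4, the insulin-regulated glucose transporter itself, was lower by 0.20 and kept its call in 19 of 27 fits without 1 library. Among myostatin, TGF-beta and BMP genes 4 of 26 were called higher and 3 lower. Mstn, the myokine that limits muscle growth, was higher by 0.49 (adjusted p = 0.00895), and Gdf11, its close relative, was lower by 0.68. The count of lower genes was 1 without any 1 of Mu ZT 10 replicate 1, Mu ZT 10 replicate 2 and Mu ZT 22 replicate 2.

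Selenoproteins were higher in 8 of 18 cases, and in 5 without Mu ZT 22 replicate 1. Their summed level was above all Mu libraries in 14 of 15 Hu libraries. Besides Gpx3, Selenop, the plasma carrier of selenium that the liver makes in quantity, was higher by 0.61 in muscle, and Selenof by 0.24. Dio2, the deiodinase that activates thyroid hormone and also a selenoprotein, was lower by 1.04, and Dio3, which inactivates the hormone, was higher by 1.39 from a median of 0.105 CPM in Mu to 0.299 CPM in Hu. Of 14 iron and haem genes 4 were called higher and 3 lower, with a median of 0.08. Trf, transferrin (1.81), Cp, ceruloplasmin (0.90), and Fth1, the ferritin heavy chain (0.23), were the higher genes with the smallest p, and the lower ones were Mb (-0.94), Alas1 (-0.31), the first enzyme of haem synthesis, and Ireb2 (-0.15), an iron sensor. The hepatocyte list gave little: 4 of 10 markers passed the filter and Cyp2e1 was called higher (1.54), but not without Hu ZT 6 replicate 1 (adjusted p = 0.0626), and in 17 of 27 fits without 1 library. Summed hepatocyte markers were highest in Hu ZT 14 replicate 2 (227.6 CPM, Hu median 31.02) and Mu ZT 14 replicate 1 (219.9 CPM, Mu median 19.88). The part of liver RNA in the levels of genes that the liver makes was not tested.

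Collagens, the fibrous proteins around fibres and vessels, were lower in Hu muscle. Of 18 collagen genes 14 were called lower and 1, Col14a1 (0.51), higher, with a median of -0.67. Col15a1, a collagen of basement membranes, ran from 9.9 through 21.6 to 54.5 CPM in Hu and from 30.3 through 58.1 to 97.4 CPM in Mu. It was 2.42-fold lower (log2 -1.28, SE 0.20, adjusted p = 1.25e-04), and 9 of 15 Hu libraries lay below all Mu libraries. Col4a2, of the basement membrane, and Col8a1, a short-chain collagen, were lower by 0.63 and 0.98 on the log2 scale. Of 22 other matrix genes 1, Timp3 (0.15), was called higher and 8 lower (13 without Hu ZT 14 replicate 1), led by Sparc (-0.76), Lama2 (-0.37) and Lamc1 (-0.34), and of 10 tendon cell genes 5, with Scx, the tendon transcription factor, at -0.51 and Cilp2 at -1.43. General fibroblast markers did not fall alike: of 14, 4 were called lower, with a median of -0.01. Summed tendon markers ran from 190.5 through 464.2 to 1305 CPM in Hu and from 412.3 through 860.8 to 1636 CPM in Mu, and 7 Hu libraries lay below all Mu libraries.

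Vessel genes were lower by small amounts. Of 13 endothelial genes 6, of 11 pericyte and smooth muscle genes 5, and of 12 genes of vessel growth and hypoxia 7 were called lower, and none in these lists was called higher. Kdr, the main receptor of vascular endothelial growth factor, ran from 44.5 through 67.7 to 106 CPM in Hu and from 61.8 through 113 to 150 CPM in Mu (log2 -0.61, SE 0.10, adjusted p = 2.42e-04). Aplnr, the apelin receptor of growing vessels, was lower by 1.45 and its ligand Apln by 1.22. Rgs5, a pericyte marker, had 12 of 15 Hu libraries below all Mu libraries and was lower by 0.49. The summed pericyte and smooth muscle markers ran from 586.8 to 982.9 CPM in Hu and from 840.5 to 1112 CPM in Mu, with 10 Hu libraries below all Mu libraries. Lymphatic endothelial genes differed from these: Lyve1 (1.003), Mmrn1 (1.09) and Reln (0.39) were called higher and Prox1 (-0.43, called in 14 of 27 fits without 1 library) lower, of 6 tested. Lyve1 is also expressed by a subset of tissue macrophages.

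Satellite cells, the stem cells of muscle, had 6 of 11 genes called lower and 1 higher. Pax7, their defining transcription factor, ran from 0.987 through 2 to 2.72 CPM in Hu and from 2.05 through 2.9 to 3.85 CPM in Mu, with 8 Hu libraries below all Mu libraries and a log2 difference of -0.59 (SE 0.14, adjusted p = 0.00344). Heyl, a Notch target, was lower by 0.71 and Megf10 by 0.80, and Cdh15, M-cadherin, was higher by 0.33. At the neuromuscular junction 4 of 12 genes were called lower, and 2 without Hu ZT 6 replicate 1 or any of several other single libraries, among the 4 Chrnd, an acetylcholine receptor subunit, at -0.56. Chrna9, a receptor subunit better known from sensory hair cells, was higher by 3.17 (SE 0.49, adjusted p = 1.27e-04), from a median of 0.183 CPM in Mu to 1.23 CPM in Hu. Of 18 heat shock genes 7 were called lower and 1, the cold-induced Rbm3 (0.47), higher. The pair Hspa1a and Hspa1b, near-identical copies between which reads may be split, had differences of -1.90 and -1.82, and their highest Mu libraries were at 228 and 309 CPM. Both lost the call without Mu ZT 6 replicate 1 or Mu ZT 18 replicate 1, with differences as small as -0.81, and 4 heat shock genes were called lower without either.

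By time point, the macrophage and complement lists had medians above 0 at all 6 times, from 0.41 to 1.76 and from 0.23 to 1.56, and the ribosome list from 0.21 to 0.53. Medians of complexes II and III lay between -0.78 and -0.04 and those of collagens between -1.21 and -0.26. Differences were smallest at ZT 2 for complexes II and III and for collagens. Of 19 clock genes 2 were called, Rora (0.28) and Per1 (0.66), both higher, and Per1 kept its call in 15 of 27 fits without 1 library.

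**Figure D4:**
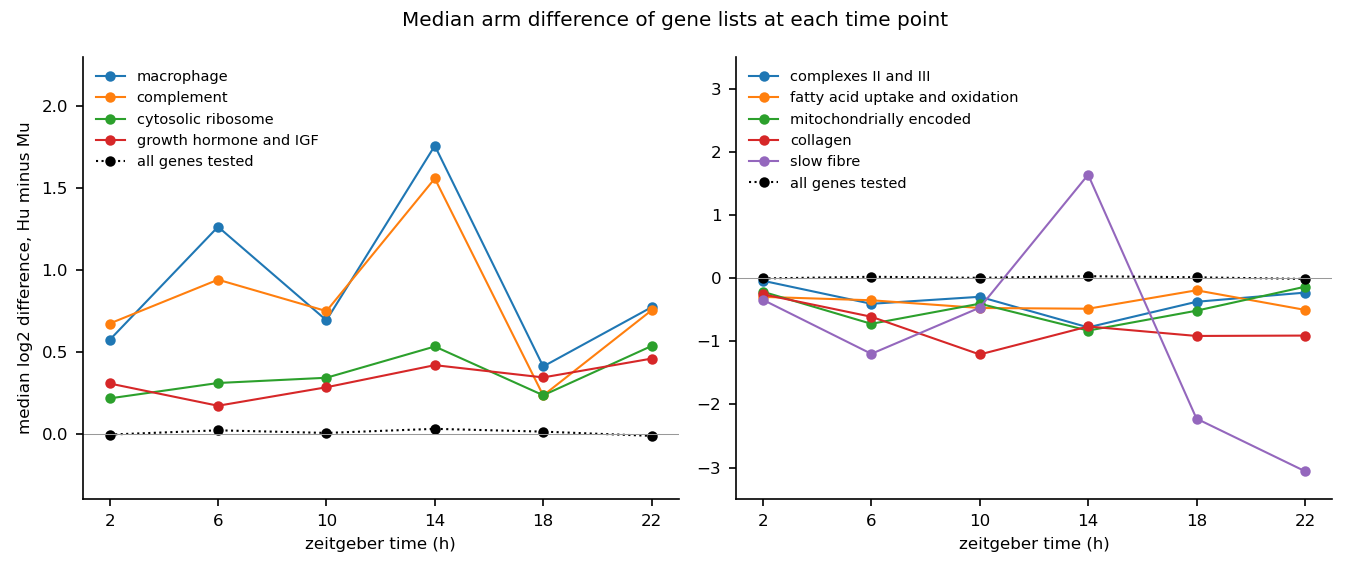
Median log2 difference (Hu minus Mu, difference of the arm means of log2 CPM) of the tested genes of each list at the 6 zeitgeber times, with lists higher in Hu on the left and lists lower in Hu on the right; the vertical scales differ. The macrophage median ranges from 0.41 at ZT 18 to 1.76 at ZT 14, the collagen median stays between -1.21 and -0.26, and the slow fibre median changes sign at ZT 14.

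Without Hu ZT 6 replicate 1, 1786 genes (12.6% of 14156) were called higher and 1937 (13.7%) lower. The 1700 genes called higher in both fits were 88.4% of the first list and 95.2% of the second, and the 1763 called lower in both were 93.1% and 91%. Higher genes of over 2-fold went from 381 to 264 and lower ones from 153 to 148. The log2 difference of 13 higher genes fell by over 1, and all 13 were no longer called. Among them were Slc4a1, the anion exchanger of red cells, from 4.05 to 0.38 (adjusted p = 0.810), and Pdzk1ip1, from 3.41 to 1.08 (adjusted p = 0.395).

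Lcn2 and Mmp9, stored in neutrophil granules, went from 2.58 to 1.55 and from 2.52 to 1.25, with adjusted p of 0.0804 and 0.112. No neutrophil, marrow or red cell marker was called without the library, and the median of 11 dividing cell genes, none of them called in either fit, went from 1.12 to -0.59. Of the 227 called genes that were examined by name, 15 lost the call. They included Asns and Phgdh, enzymes of amino acid synthesis (adjusted p = 0.0538 and 0.0537). No count of the respiratory chain, citric acid cycle, complement or collagen lists fell.

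**Figure D5:**
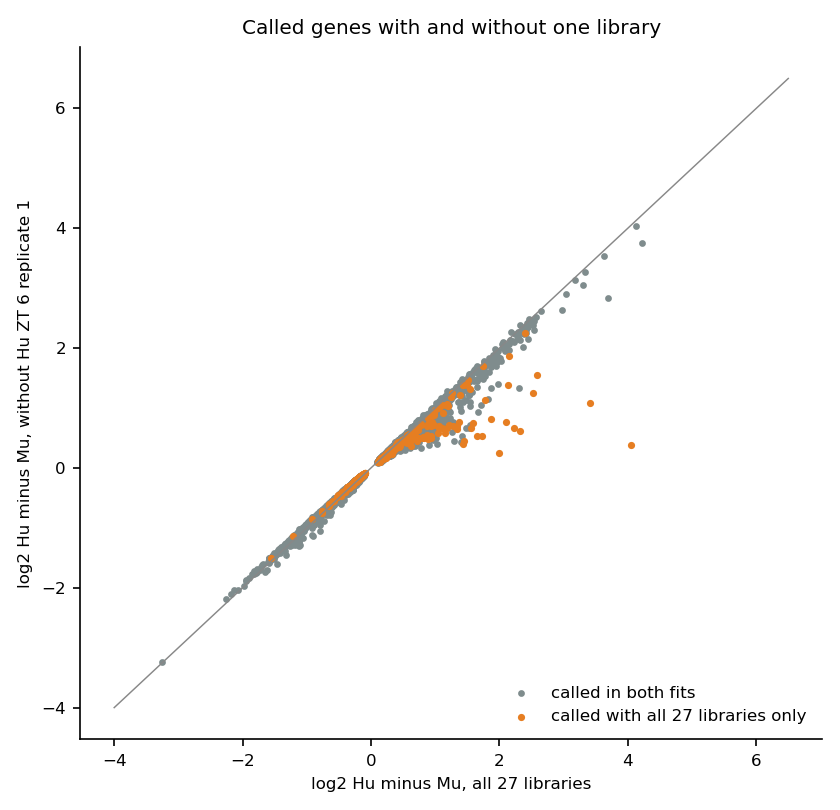
Log2 difference of each called gene with all 27 libraries (horizontal) and without Hu ZT 6 replicate 1 (vertical); the line marks equal values, grey genes were called in both fits and orange genes with all libraries only. Slc4a1 falls from 4.05 to 0.38 and Pdzk1ip1 from 3.41 to 1.08, while genes below 0 stay close to the line.

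The arm differences of muscle were also set against those of 2 brain regions of the same table, the arcuate nucleus (ARC, 9 Hu and 12 Mu libraries) and the suprachiasmatic nucleus (SCN, 9 Hu and 12 Mu). In a fit over all 3 tissues, 3199 of 16073 genes (19.9%) had an arm difference in muscle that differed from the mean of the brain regions. The test shares the muscle libraries with the comparison above, so it is not independent of it. All 24 genes with the smallest p-values in muscle, 12 in each direction, were among those genes. Of all 232 genes examined by name, 168 were. Cfd was not (adjusted p = 1.0), nor were Ucp1 (adjusted p = 0.191) and Pax7 (adjusted p = 0.760), while Socs2 (difference of differences 1.12, adjusted p = 4.00e-05), Fabp3 (-1.40, adjusted p = 2.50e-07) and Esrrg (-1.53, adjusted p = 3.46e-06) were.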

How the data were processed

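RNA sequencing of skeletal muscle gave 1 library per sample, and the authors deposited raw read counts per gene in 1 table for muscle, ARC and SCN. STAR is named in the submitters' processing notes. The counting tool and the role of each listed genome build are not given in the sources used here. Of 71 columns, 2 matched no sample and were not used. Samples were grouped by the arm, tissue and zeitgeber time in the labels. Of 20415 rows, 14197 genes passed edgeR's filterByExpr by arm among the 27 muscle libraries.

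Counts were scaled by TMM and fitted with edgeR 4.0.16 (quasi-likelihood, R 4.3.3) with arm and a 24 h cosine and sine in each arm, and the arm term, the time-averaged difference, was tested with Benjamini-Hochberg adjustment at 0.05. CPM values use the TMM library sizes. The comparison with ARC and SCN was a single fit over the 3 tissues. Differences at single time points and list medians by time are not tested. Time-point differences use log2 CPM with a prior count of 2. Depth per library is given as its total count.

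Genes were named by rule: the 12 with the smallest p in each direction, the 8 with the largest fold in each direction at a mean of at least 1 CPM, up to 3 called genes per list and direction, and the strain and tissue checks. Others are marked as picked after their values were seen. The 69 lists (23 of cell types and 46 of functions, 1092 different genes in the table) and the comparison itself were chosen with earlier results of these data known, so they are no independent support. On data simulated from the 14197 genes, the fit recovered 40% of genes changed 1.25-fold, 70% at 1.5-fold, 94% at 2-fold and 94% at 4-fold (50 genes each), and called 7 unchanged genes. The simulation drew each gene independently. It therefore does not measure false calls where many genes vary together between libraries, as fat, marrow and slow fibre markers did here. Alternatives were DESeq2 1.42.0, other scaling, filters and time terms, a test against 1.5-fold, replicate blocks, and fits without single libraries or time points. The fits without the 3 libraries with summed fat markers above 10000 CPM were added after seeing the data.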

Additional observations from a re-analysis of the deposited data

Results flagged for a closer look

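The arm difference in muscle differed from that in ARC and SCN for all 24 of the genes with the smallest p-values in muscle (edgeR's quasi-likelihood test over 3 tissues, largest adjusted p = 0.00674). The genes were chosen for their muscle p-values and the test uses the same muscle libraries, so it is no independent evidence. The log2 difference of muscle minus that of the brain regions was above 0 for Cxcl13 (3.77), Prkcz (1.13), Gpx3 (1.48), Taf9b (0.576), Spag6 (0.98), Tmem176b (0.996), Penk (1.16), Ctxn3 (1.65), Epop (1.38), Ngfr (1.99), Ifitm1 (1.05) and Tmem176a (0.928). It was below 0 for Fam92a (-0.644), Abi2 (-0.549), Csdc2 (-1.13), Ets1 (-0.594), Gm43302 (-0.996), Col22a1 (-0.712), Klhl23 (-1.14), Fam221b (-1.34), Vash1 (-1.17), Dcakd (-0.946), Ostm1 (-0.418) and Zfp532 (-0.418).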

How the results depend on the processing

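The number of called genes, 3817, was between 3071 and 4411 when each library was left out in turn (1486 to 2332 higher and 1585 to 2079 lower), lowest without Mu ZT 22 replicate 1 and highest without Mu ZT 2 replicate 2. It was 2055 without ZT 6 (987 higher, 1068 lower) and 1582 without ZT 22 (695 higher, 887 lower), fits with fewer samples. Higher genes numbered 1265 without ZT 14 and 1273 without ZT 18. The test against 1.5-fold called 115 (59 higher, 56 lower), by its construction. DESeq2 called 4267, RLE scaling 3858, no filter 3545 and no time terms 2962.

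Pairing by replicate number was looked at through deviations from the mean of each arm and time. Over 12 pairs these correlated at 0.025 on average, from -0.145 to 0.462, with 2 above 0.1. Where both arms had 2 libraries at a time, both pairs of that time give the same value by construction. The 12 values are therefore not independent, and they cannot settle whether the libraries were paired. With the number as a replicate block 3565 genes were called, and with time point and number together as a block 2785, of them 1273 higher. In that fit the Acta1 difference was -0.0057, and over single libraries left out it ran from -0.019 to 0.091. Of 232 named genes, 227 of them called, 25 lost their call with the number as a block. With time point and number as a block 231 of the named genes were fitted, and 52 lost their call. The brain comparison called 1852 genes against ARC alone, 1958 against SCN alone and 3209 with the replicate block. Of 49 list counts, 10 moved by over 1.5 times with time point and number as a block, 2 with the number alone, 3 without Hu ZT 6 replicate 1 and 1 with DESeq2, as did 55 of 1323 counts with single libraries left out. Slow fibre genes called lower, 4 in all, numbered 2 with the number block and 0 with the block of time point and number.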
